A study of Homo sapiens with 4 samples.

Results

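The neurons of PP121-treated enteric ganglioids were described by the subtype that the deposited annotation gives each nucleus. Enteric ganglioids are free-floating clusters of neurons and other cells grown from human pluripotent stem cells through an enteric neural crest stage. PP121 is an inhibitor of several receptor tyrosine kinases, PDGF receptors among them, which the study used to raise the number of nitric oxide neurons. Members were the nuclei of both PP121 samples that carried the class Enteric Neuron and a neuron subtype other than blank, NA or Filtered. There were 2802 such nuclei, 1887 in PP121 replicate 1 and 915 in PP121 replicate 2, out of 3006 enteric neurons and 7499 annotated nuclei of these samples and 14812 annotated nuclei in the series. They fell into 9 subtypes, EN A to EN I. A subtype had to hold at least 50 nuclei over both samples. The smallest, EN G, held 100, so each of the 9 was kept and none fell outside.

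Both PP121 samples were derived from H9, a human embryonic stem cell line, and were grown in suspension and given 2 µM PP121 from day 15 to day 20. Each sample pooled ganglioids from 1 independent differentiation, and the 2 control samples came from the same line and protocol with treatment labelled control. Per the deposited annotation, replicate 1 of either group was collected on day 42 and replicate 2 on day 38, so within PP121 the replicate and the day cannot be told apart. All samples share the 1 cell line and the culture medium with GDNF, and nothing in them comes from gut.

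Neurons of the enteric nervous system arise from migrating neural crest cells under transcription factors such as HAND2 and TLX2 and the receptors RET and EDNRB. In the gut wall they include inhibitory motor neurons that make nitric oxide through NOS1, excitatory motor neurons that use acetylcholine and tachykinins, interneurons and sensory neurons. Several factors used below are also well known outside the gut: PAX2, PAX8, LHX1 and LHX5 from inhibitory interneurons of the spinal cord and hindbrain, LMX1B and TLX3 from excitatory neurons there, and LHX2 and LHX9 from dorsal interneurons.

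The class label was checked against marker lists. The summed level of 11 neuron markers was 10785 and 8644 CPM (a gene's unique molecular identifiers, or UMIs, as a share of all those of the summed nuclei, scaled to 1e6) in the neurons of PP121 replicates 1 and 2, against 1324 and 1424 CPM in the class Progenitor 1. NRXN3 supplied the largest part of this sum. Of 13 mesenchymal markers the neurons held 164 and 230 CPM in sum, against 5090.3 and 5514 CPM in the mesenchymal class. Of 21 listed enteric factors, 8 had 20 UMIs or fewer in each of the 2 PP121 samples over all neurons. TBX3 had 0 and 0 UMIs, HAND2 1 and 0, TLX2 1 and 0, HOXB5 0 and 1, ISL1 1 and 10, TBX2 11 and 8, EDNRB 13 and 8, and RET 20 and 13. By these markers the nuclei were neurons, and they are called that here, since these 8 factors were at or near 0.

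Depth was similar between the subtypes. Median UMIs per nucleus ran from 6025 to 8878 over subtypes and samples, leaving out the 1 EN G nucleus of replicate 2, and were 6900 and 7784 over all subtyped neurons of replicates 1 and 2. Neurons summed to 16833351 and 8755285 UMIs in the PP121 samples and 18951821 and 11088890.0 in the controls. Pairs of libraries shared between 0 and 8 cell barcodes. Intervals given here are exact binomial 95% intervals and, like the limits for counts of 0, cover counting error only.

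The shares of the subtypes are given for 1 library each on day 42 and day 38, with no test between them. EN A made up 21.2% of the subtyped neurons in replicate 1 and 24.9% in replicate 2, with overlapping intervals of 19.4 to 23.1% and 22.1 to 27.9%. EN B, EN C, EN D, EN E and EN G took larger shares on day 42 and EN A, EN F, EN H and EN I on day 38.

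EN C held 13.9% (12.4 to 15.5%) of replicate 1 and 3.93% (2.77 to 5.41%) of replicate 2. EN E held 9.75% and 3.17%, EN B 18.4% and 13.01%, and EN D 6.04% and 1.09%. The widest ratio belonged to EN G, with 99 nuclei (5.25%, 4.28 to 6.35%) in replicate 1 and 1 nucleus (0.109%) in replicate 2.

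In the other direction, EN F stood at 7.15% (6.03 to 8.41%) in replicate 1 and 19.9% (17.3 to 22.6%) in replicate 2. EN H held 16.0% and 25.5%, and EN I 2.28% (1.65 to 3.06%) and 8.42% (6.70 to 10.4%). As mean ± SD over the 2 samples the shares were 23.1 ± 2.63% for EN A, 20.7 ± 6.69% for EN H, 15.7 ± 3.84% for EN B, 13.5 ± 9.01% for EN F, 8.91 ± 7.04% for EN C, 6.46 ± 4.65% for EN E, 5.35 ± 4.34% for EN I, 3.57 ± 3.50% for EN D and 2.68 ± 3.63% for EN G. Shares of 1 sample sum to the whole, so they do not vary independently, and with 1 sample a day no test of the day can be made.

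**Figure D1:**
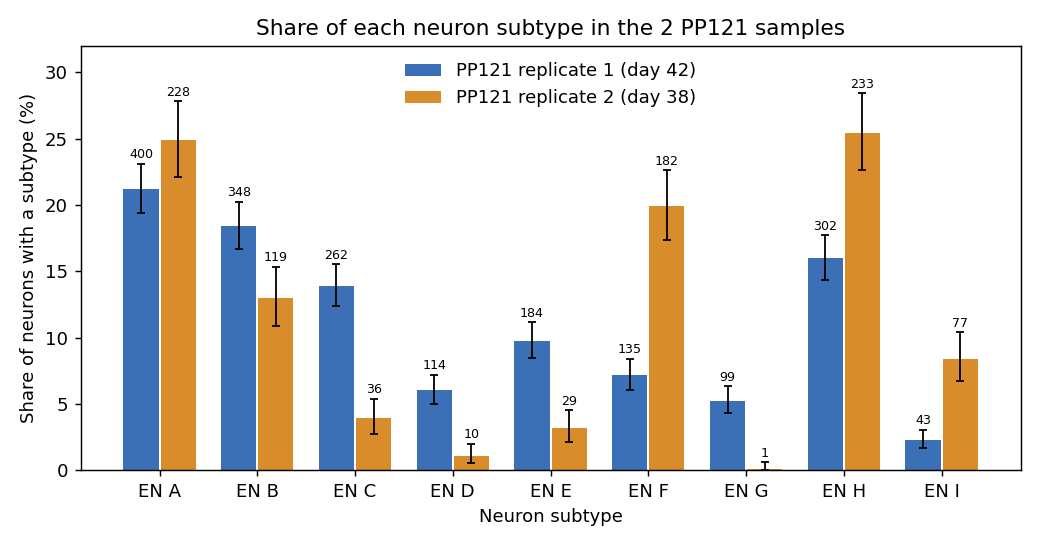
Share of each neuron subtype among the subtyped neurons of PP121 replicate 1 (day 42, 1887 nuclei) and PP121 replicate 2 (day 38, 915 nuclei), in percent, with exact binomial 95% intervals as error bars. The bars of EN A are nearly level, EN G is almost missing from replicate 2 at 0.109%, and EN F and EN I are taller in replicate 2.

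For each subtype, the counts of its nuclei were summed per sample and set against the other subtyped neurons of the same sample. Ratios are log2 of (CPM + 5), given as mean ± SD over the 2 PP121 samples (n = 2). Levels are written for the subtype against the other neurons, replicate 1 first. Genes past a 2-fold ratio in the same direction in both samples are called higher or lower here. The subtypes were clustered on these nuclei and genes, per the paper together with control neurons. These values are therefore a description with no test. EN D and EN G had under 20 nuclei in replicate 2 and are described in replicate 1 alone, with no replicate check. Levels in CPM compare a gene between groups of nuclei, not one gene with another.

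EN C was the subtype with the highest glycine transporter transcript. SLC6A5, the glycine transporter of glycinergic terminals, stood at 1408 and 1465 CPM against 412 and 193 CPM (log2 ratio 2.33 ± 0.80) in replicates 1 and 2. The GABA-synthesising enzyme GAD2 was at 243 and 234 CPM against 89.0 and 26.3 CPM (log2 ratio 2.17 ± 1.09), and the vesicular inhibitory transporter SLC32A1 at 21.9 and 23.4 CPM against 7.87 and 3.66 CPM (log2 ratio 1.39 ± 0.46). CHAT, which makes acetylcholine, was also among the first 10 genes of EN C at 64.2 and 76.9 CPM against 10.2 and 3.53 CPM (log2 ratio 2.72 ± 0.76). Of the 23 transmitter genes listed, 9 were measured above the minimum in EN C, of which 4 were higher (these 4) and 1, the vesicular glutamate transporter SLC17A6, was lower at 0.951 and 0 CPM against 50.7 and 62.6 CPM (log2 ratio -3.49 ± 0.38).

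Of 64 transcription factors of neuron classes measured, 4 were higher and 15 lower. Higher were the paired-box factors PAX8, at 687 and 522 CPM against 157 and 22.6 CPM (log2 ratio 3.18 ± 1.53), and PAX2, at 1094 and 1478 CPM against 389 and 163 CPM (log2 ratio 2.31 ± 1.18), with FOXP2 and MAB21L2, while the paired-box factor PAX3 was among the lower. The gene that led EN C was PLD5, a member of the phospholipase D family, at 2180 and 2231 CPM against 287 and 59.7 CPM (log2 ratio 4.01 ± 1.56). It was followed by the non-coding transcripts AL591686.2 and AL589693.1, then SAMD5, TRHDE (an enzyme that degrades thyrotropin-releasing hormone), AL033504.1, the synaptic vesicle protein SV2C at 255 and 321 CPM against 50.04 and 16.7 CPM (log2 ratio 3.07 ± 1.18), AL513164.1, CHAT and AL161804.1. Ion channel genes higher in EN C were GRIK3, KCND2, KCNN2 and CACNA2D3, 4 of 58 measured, with 7 lower. HOXB3 was the 1 of 4 measured HOX genes that was higher, at 167 and 151 CPM against 56.5 and 58.6 CPM (log2 ratio 1.39 ± 0.14).

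The lowest genes of EN C were AC105389.3, SLC17A6 and EBF2. In all, 67 genes (0.569% of 11766) were higher and 172 (1.46%) lower. The replicate 2 side of each ratio rests on 36 nuclei, and the other neurons of replicate 2 held less of the leading genes, as with PLD5 above.

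EN G also had higher PAX2, PAX8 and GAD2. In replicate 1 PAX2 stood at 1317 CPM against 441 CPM (log2 ratio 1.57), PAX8 at 809.9 CPM against 199 CPM (log2 ratio 2.00) and GAD2 at 256 CPM against 102 CPM (log2 ratio 1.28), while SLC6A5, at 809.9 CPM against 539 CPM (log2 ratio 0.58), missed the 2-fold line. Its first gene was SST, the precursor of somatostatin, at 70.4 CPM against 2.71 CPM (log2 ratio 3.29), seen in 10.1% of its 99 nuclei.

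GPC5, a cell-surface glypican, followed at 759 CPM against 77.8 CPM (log2 ratio 3.21), then AL356737.2, the adhesion molecules CNTN5 and CDH7, AL355835.1, GPC5-AS2, AC091646.1, the neurexin ligand NXPH1 at 803 CPM against 143 CPM (log2 ratio 2.45) and AL392023.2. BCL11A, a transcription factor of the zinc-finger family, was at 603 CPM against 146 CPM (log2 ratio 2.00), and GBX2, a homeobox factor of the anterior hindbrain, at 32.1 CPM against 7.21 CPM (log2 ratio 1.60). Of 58 transcription factors of neuron classes measured in EN G, 7 were higher and 22 lower. LHX5, LBX1, FOXP2, EBF1, EBF2 and EBF3 were among the lower. Of 4 HOX genes measured, 3 were higher: HOXA3 at 88.9 CPM against 23.2 CPM, HOXB3 at 173 CPM against 66.4 CPM and HOXD3 at 66.7 CPM against 25.5 CPM.

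Genes lowest in EN G were DSCAM at 11.1 CPM against 527 CPM (log2 ratio -5.04), LUZP2 and ONECUT1. The neurofilament genes NEFL and NEFM were both lower, and TH, the first enzyme of catecholamine synthesis, had 0 UMIs. In total, 226 genes were higher (1.92% of 11783) and 601 lower (5.1%) in this single sample, or 342 and 939 with a pseudocount of 1 CPM.

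Among EN C, EN E and EN G, the subtypes with higher GAD2, EN E had the highest GAD1. Of 10 transmitter genes measured in EN E, GAD1 and GAD2 were higher and SLC17A6 lower. SLC32A1 was not among the higher genes. GAD1 reached 176 and 97.0 CPM against 37.4 and 23.2 CPM (log2 ratio 1.98 ± 0.17) and GAD2 207 and 198 CPM against 99.0 and 28.2 CPM (log2 ratio 1.82 ± 1.12), whereas SLC17A6 was lower at 0.619 and 14.4 CPM against 48.9 and 61.9 CPM (log2 ratio -2.52 ± 1.04). SLC6A5, at 681 and 654 CPM against 538 and 226 CPM (log2 ratio 0.92 ± 0.83), did not reach 2-fold in both samples. Its leading genes were PCP4, a calmodulin regulator, at 106 and 108 CPM against 4.17 and 5.21 CPM (log2 ratio 3.53 ± 0.093), the RNA-binding protein gene RALYL, the cadherin CDH18 at 3733 and 3506 CPM against 351 and 176 CPM (log2 ratio 3.84 ± 0.63), AC090138.1, NKAIN2, CDH18-AS1, CSMD1, SIDT1, RNF217-AS1 and the netrin-G ligand LRRC4C at 1459.5 and 2357 CPM against 245 and 178 CPM (log2 ratio 3.12 ± 0.81). CDH18-AS1 overlaps its sense partner, and reads of the pair cannot be told apart without knowing how strand was counted.

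Receptor genes were higher too: GRIN2B at 397 and 248 CPM against 70.5 and 27.8 CPM (log2 ratio 2.68 ± 0.38), GABRG3 at 256 and 532 CPM against 43.9 and 35.3 CPM (log2 ratio 3.07 ± 0.93) and GRM8 at 74.9 and 643 CPM against 19.9 and 28.3 CPM (log2 ratio 2.98 ± 1.84), among 9 of 61 channels and receptors measured, with 4 lower. Guidance and adhesion genes went the same way, 12 of 70 higher and 2 lower. The class-defining transcription factors did not: 1 of 63, ONECUT1 at 199 and 384 CPM against 55.2 and 64.9 CPM (log2 ratio 2.12 ± 0.51), was higher and 20 were lower, among them LHX9, LMX1B, SHOX2, PAX3, EBF1 and BCL11B. The 3 lowest genes were AC105389.3, BCL11B and EYA2. EN E had 129 genes higher (1.09% of 11796) and 134 lower (1.14%), on 184 and 29 nuclei. With a pseudocount of 1 CPM the counts were 153 higher and 281 lower.

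EN B was led by ROBO4 and ROBO3, members of the Robo receptor family. ROBO4 stood at 141 and 95.3 CPM against 7.15 and 8.25 CPM (log2 ratio 3.25 ± 0.47) and ROBO3, which acts in the crossing of the midline by axons, at 581 and 548 CPM against 50.5 and 75.5 CPM (log2 ratio 3.09 ± 0.44). The contactin CNTN2 followed at 429 and 482 CPM against 85.5 and 118 CPM (log2 ratio 2.12 ± 0.19), with AP003501.1, the laminin subunit LAMB4, LINC02144, AC008522.1, the vesicular zinc transporter SLC30A3, LINC02233 and AP000866.1. NRXN3, the presynaptic neurexin that supplied the largest part of the neuron marker sum, was at 15345 and 11199 CPM against 4962 and 2945 CPM (log2 ratio 1.78 ± 0.21).

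Its higher transcription factors were LHX1 at 115 and 123 CPM against 52.5 and 29.7 CPM (log2 ratio 1.47 ± 0.59), LHX5 at 30.6 and 38.5 CPM against 9.29 and 8.54 CPM (log2 ratio 1.50 ± 0.26), PAX2 at 949.6 and 545 CPM against 389 and 163 CPM (log2 ratio 1.50 ± 0.31) and SKOR1 at 40.8 and 33.7 CPM against 14.8 and 5.07 CPM (log2 ratio 1.58 ± 0.52). These were the 4 higher of 64 measured, and 6 were lower. Among guidance and adhesion genes 3 of 70 were higher and 20 lower, including ROBO2, UNC5C, DSCAM, CNTNAP2 and CDH18, which was the lowest gene of all at 35.9 and 19.3 CPM against 868 and 334 CPM (log2 ratio -4.11 ± 0.43). Channels and receptors showed 0 of 59 higher and 13 lower. PCDH7, RALYL, NTRK3, NRG1 and TAC1 were lower as well. In total 59 genes (0.504% of 11702) were higher and 196 (1.67%) lower.

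**Figure D2:**
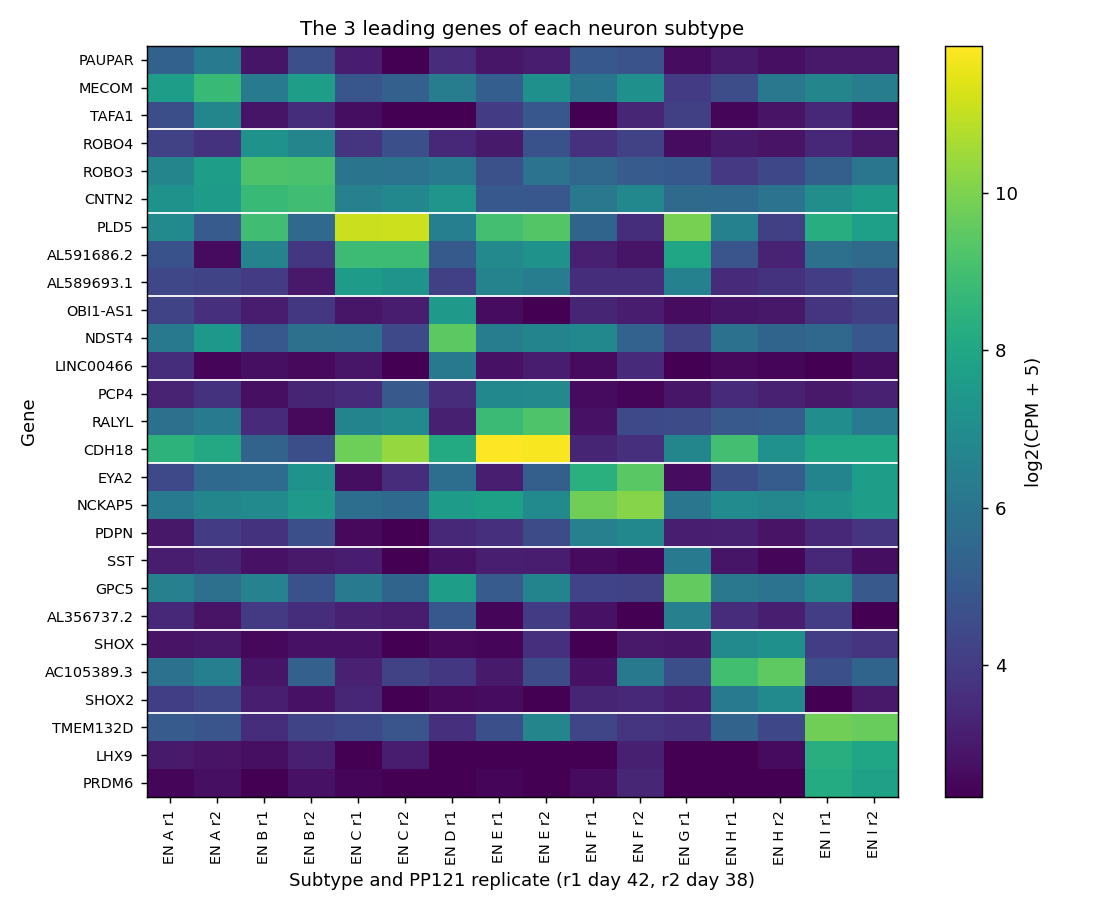
Levels of leading genes of each subtype, as log2(CPM + 5), in each subtype and PP121 sample with at least 20 nuclei. The blocks along the diagonal, for example LHX9 and PRDM6 in EN I and SHOX in EN H, are bright (high) in both samples. EN A has the faintest block.

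EN H had higher glutamatergic and tachykinin transcripts, of which the glutamatergic SLC17A6 was higher in EN I as well. SLC17A6 stood at 123 and 122 CPM against 29.1 and 40.5 CPM (log2 ratio 1.69 ± 0.30) and TAC1, the precursor of substance P, at 55.4 and 131 CPM against 6.87 and 6.64 CPM (log2 ratio 2.95 ± 0.85). The peptide precursor ADCYAP1 (PACAP) was at 18.7 and 14.5 CPM against 1.92 and 4.32 CPM (log2 ratio 1.42 ± 0.50) and the secretory granule protein SCG2 at 31.8 and 24.9 CPM against 7.51 and 4.82 CPM (log2 ratio 1.58 ± 0.035). GAD1, GAD2, SLC6A5 and CHAT were all lower, CHAT with 1 UMI in each sample.

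Of 65 transcription factors of neuron classes measured in EN H, 7 were higher and 14 lower, with the homeobox genes LHX1, LHX5, LHX9 and LBX1 among the lower. The homeobox gene SHOX was at 114 and 132 CPM against 1.60 and 3.32 CPM (log2 ratio 4.11 ± 0.097), SHOX2 at 74.1 and 112 CPM against 5.43 and 6.98 CPM (log2 ratio 3.103 ± 0.25) and LMX1B at 139 and 227 CPM against 12.3 and 26.2 CPM (log2 ratio 2.98 ± 0.12). TLX3 was at 24.0 and 21.3 CPM against 3.91 and 3.82 CPM (log2 ratio 1.64 ± 0.089), and ZFHX3 and BCL11B were higher too. The remaining genes of the first 10 were AC105389.3, AL161908.1, the xylosyltransferase XYLT1 at 1112 and 1321 CPM against 194 and 158 CPM (log2 ratio 2.76 ± 0.38), LINC00682, the potassium channel KCNH5 and TMEM255A.

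Of 10 enteric factors measured in EN H, 2 were higher and 0 lower. GFRA2, a co-receptor for neurturin, was one of them at 40.6 and 24.4 CPM against 9.11 and 8.14 CPM (log2 ratio 1.43 ± 0.37). HAND2, ISL1, TLX2 and RET were too low to be among the 10. TH, at 15.7 and 25.4 CPM against 8.63 and 8.14 CPM (log2 ratio 0.91 ± 0.43), did not reach 2-fold in both samples, and DBH, the next catecholamine enzyme, had 3 and 1 UMIs.

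NRG1, a neuregulin and the 1 higher of 11 neuron markers, was at 1609 and 2814 CPM against 375 and 323 CPM (log2 ratio 2.60 ± 0.72). The neurotrophin receptor NTRK3, the 1 higher of 6 sensory neuron markers measured, was at 313 and 255 CPM against 109 and 70.9 CPM (log2 ratio 1.63 ± 0.20), and GAP43, the 1 higher of 15 maturity genes measured, at 344 and 504 CPM against 111 and 149 CPM (log2 ratio 1.66 ± 0.098). SLC6A5, PAX2 and PAX8-AS1 were the 3 lowest genes. EN H had 147 genes higher (1.26% of 11708) and 170 lower (1.45%).

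EN I, with 120 nuclei, had the largest ratios among the named genes of the 9 subtypes. LHX9 stood at 318 and 240.4 CPM against 0.898 and 2.49 CPM (log2 ratio 5.40 ± 0.52) and PRDM6, a factor of the PR-domain family, at 286 and 216 CPM against 0.346 and 1.93 CPM (log2 ratio 5.38 ± 0.54). TMEM132D reached 889.9 and 796 CPM against 19.4 and 19.1 CPM (log2 ratio 5.13 ± 0.098) and GRIK1, a kainate receptor subunit, 1826 and 1553 CPM against 54.1 and 55.2 CPM (log2 ratio 4.82 ± 0.18). PRDM6 came from 27.9 and 27.3% of the nuclei, LHX9 from 65.1 and 67.5%.

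AL008633.1, ANKFN1, CELF2-DT, AC055878.1, LINC01495 and AC090531.1 filled the first 10. LHX2, at 37.9 and 17.0 CPM against 0.276 and 1.38 CPM (log2 ratio 2.40 ± 0.88), and EVX2, at 14.6 and 8.48 CPM against 0.0691 and 0 CPM (log2 ratio 1.69 ± 0.37), were higher on 5 to 13 UMIs a sample. EBF1, ONECUT1 and ONECUT2 were higher as well, 7 of 68 factors in all, and 13 were lower. HOXB4 was the 1 HOX gene of 5 that was higher, at 20.4 and 26.9 CPM against 2.14 and 6.08 CPM (log2 ratio 1.68 ± 0.22).

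Of the transmitter genes, SLC17A6 was at 189.6 and 136 CPM against 40.2 and 52.9 CPM (log2 ratio 1.69 ± 0.58) and the choline transporter SLC5A7 at 67.1 and 45.2 CPM against 4.63 and 7.60 CPM (log2 ratio 2.45 ± 0.64). CHAT, the enzyme that turns choline into acetylcholine, had 1 and 10 UMIs. GAD1, GAD2 and SLC6A5 were among those lower. NRXN3 was the lowest gene at 350.1 and 447 CPM against 6971 and 4373 CPM (log2 ratio -3.79 ± 0.72), followed by PAX2 and CACNA2D3. EN I had 145 genes higher (1.21% of 12008) and 126 lower (1.05%).

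EN D, seen in replicate 1 only, was led by OBI1-AS1 at 177 CPM against 5.30 CPM (log2 ratio 4.14) and NDST4, a heparan sulfate modifying enzyme, at 701 CPM against 55.3 CPM (log2 ratio 3.55). LINC00466, AC092958.1, the adhesion molecule FLRT2, NWD2, NXPH1 at 837 CPM against 129 CPM (log2 ratio 2.65), CNTNAP5 at 2017 CPM against 320.4 CPM (log2 ratio 2.64), the syntrophin SNTG1 and AC008415.1 came next. POU4F1, a factor of sensory neurons in the peripheral nervous system and of several brain nuclei, was at 20.1 CPM against 0.944 CPM (log2 ratio 2.08), and POU4F2 at 20.1 CPM against 3.56 CPM (log2 ratio 1.55). Of 61 transcription factors of neuron classes measured in EN D, 5 were higher and 17 lower. LMX1B, PAX2, PAX8, LBX1 and SHOX2 were among the lower. Of 4 HOX genes measured, 0 were higher and 2 lower, and of 8 enteric factors 0 were higher and 3 lower.

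FOXD3, a neural crest factor, was at 20.1 CPM against 0.871 CPM (log2 ratio 2.10) and SCN9A at 31.7 CPM against 7.84 CPM (log2 ratio 1.51). POU4F1 and SCN9A were the 2 higher genes of 7 sensory neuron markers measured; ISL1 had 0 UMIs in the subtype. GAD1, GAD2, SLC6A5 and CHAT were lower, and SLC17A6 was at 75.8 CPM against 41.2 CPM (log2 ratio 0.81), short of 2-fold. GABRG3-AS1, EPHA6 and RALYL were the lowest genes. EN D had 199 genes higher (1.69% of 11799) and 285 lower (2.42%), or 302 and 483 with a pseudocount of 1 CPM.

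EN A, the largest subtype with 400 and 228 nuclei, had the fewest genes of its own. Only 13 genes were higher (0.111% of 11690) and 37 lower (0.317%), or 8 and 48 where the sums were scaled by TMM and 36 and 77 with a pseudocount of 1 CPM. PAUPAR, a non-coding transcript beside PAX6, stood at 34.2 and 69.5 CPM against 4.97 and 11.1 CPM (log2 ratio 2.09 ± 0.16) but came from 4.75 and 5.70% of the nuclei. MECOM, a zinc-finger factor, was at 197 and 435 CPM against 43.1 and 113 CPM (log2 ratio 1.98 ± 0.12). FKBP5, a co-chaperone of steroid receptors, was at 165 and 232 CPM against 63.0 and 95.6 CPM (log2 ratio 1.28 ± 0.062).

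PFKFB4, a regulator of glycolysis, was at 220.3 and 423 CPM against 93.7 and 161 CPM (log2 ratio 1.28 ± 0.12). TAFA1, LINC00290, AL627171.2, CNTNAP4, PLPPR5 and AC010624.5 were the other named genes. TAFA1, at 19.7 and 99.9 CPM against 3.37 and 4.58 CPM (log2 ratio 2.51 ± 1.34), rested on 2.5 and 3.07% of nuclei. Outside the first 10, and chosen after the values were seen, the phosphofructokinase PFKP was at 106 and 153 CPM against 50.2 and 64.0 CPM (log2 ratio 1.10 ± 0.13) and the glycogen-branching enzyme GBE1 at 182 and 500.3 CPM against 85.4 and 179 CPM (log2 ratio 1.25 ± 0.29). The lowest genes were AL591686.2, PLD5 and SHOX, which are leading genes of EN C and EN H. None of the 9 transmitter genes measured, the 4 HOX genes or the 15 maturity genes was past 2-fold, and 0 of 64 transcription factors was higher with 5 lower. EN A had the highest median share of ribosomal transcripts of the subtypes with 20 nuclei or more, 0.846 and 0.710% of UMIs, and the lowest median depth of these, 6102 and 7091 UMIs. Their part in these ratios was not tested.

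EN F combined neuron and progenitor transcripts. PAX3, a factor of dorsal neural progenitors and neural crest, stood at 1099.9 and 633 CPM against 80.2 and 83.0 CPM (log2 ratio 3.28 ± 0.59). NOTCH1 was at 81.4 and 47.3 CPM against 9.63 and 9.56 CPM (log2 ratio 2.20 ± 0.51), PAX7 at 102 and 121 CPM against 27.8 and 29.8 CPM (log2 ratio 1.78 ± 0.10), NFIA at 111 and 163 CPM against 17.6 and 32.1 CPM (log2 ratio 2.27 ± 0.13) and SOX2 at 29.8 and 41.6 CPM against 9.56 and 9.07 CPM (log2 ratio 1.49 ± 0.33). These made 5 of 6 progenitor markers measured, and 6 of 9 radial glial markers were higher (SOX2, SLC1A3, VIM, PTPRZ1, GLI3 and RFX4). SOX2 stands in both lists.

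Of 67 transcription factors of neuron classes measured in EN F, 14 were higher and 16 lower. The higher ones included NEUROG2 at 12.9 and 16.9 CPM against 1.67 and 2.43 CPM (log2 ratio 1.49 ± 0.094), NEUROD4 at 23.8 and 59.1 CPM against 3.04 and 9.56 CPM (log2 ratio 1.99 ± 0.21) and PRDM13 at 61.5 and 15.8 CPM against 3.33 and 1.13 CPM (log2 ratio 2.38 ± 0.88). Its first 10 genes were EYA2 at 331 and 677 CPM against 22.1 and 71.3 CPM (log2 ratio 3.40 ± 0.33), NCKAP5, PDPN, PAX3, SMOC1, the Notch-pathway factor HES6 at 185 and 197 CPM against 14.8 and 24.1 CPM (log2 ratio 3.02 ± 0.33), AC125613.1, ANTXR2, AC010974.2 and the basement-membrane collagen COL4A5. GFRA1, the GDNF co-receptor, was at 112 and 163 CPM against 18.8 and 40.5 CPM (log2 ratio 2.09 ± 0.29).

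Maturity genes were lower, 5 of 15 with 0 higher: NEFL, STMN2 at 134 and 116 CPM against 351 and 426 CPM (log2 ratio -1.59 ± 0.33), GAP43 at 19.9 and 41.6 CPM against 156 and 290.4 CPM (log2 ratio -2.68 ± 0.024), ANK3 and MAPT. So were 31 of 59 channels and receptors (2 higher), 26 of 71 guidance and adhesion genes (5 higher) and 6 of 10 transmitter genes (0 higher). CDH18, MGAT4C and PAX8-AS1 were the lowest. EN F had the most genes past 2-fold in both samples, 332 higher (2.79% of 11886) and 545 lower (4.59%).

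Summed over 7 progenitor markers, EN F held 1597 and 1130.2 CPM, above Progenitor 1 with 649 and 890 CPM and below Progenitor 2 with 1927 and 1914 CPM. The other subtypes with 20 nuclei or more ran from 165 to 357 CPM in replicate 1 and 151 to 278 CPM in replicate 2. On the 11 neuron markers EN F was at 7482 and 4759 CPM, far above Progenitor 1. The proliferation list of 14 genes summed to 54.6 and 119 CPM in EN F, against 216 and 352 CPM in Progenitor 1, and MKI67 had 0 and 10 UMIs. Of the 30 and 31 subtyped nuclei with at least as many progenitor as neuron marker UMIs, 28 and 28 lay in EN F. The median depth of EN F was 6903 and 8446 UMIs, against 6900 and 7784 UMIs over all subtyped neurons. Nuclei of over 20000 UMIs made up 0 and 6.04% of EN F, against 1.75 and 3.50% of all subtyped neurons. Without the nuclei rich in progenitor markers EN F had 303 genes higher and 518 lower.

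**Figure D3:**
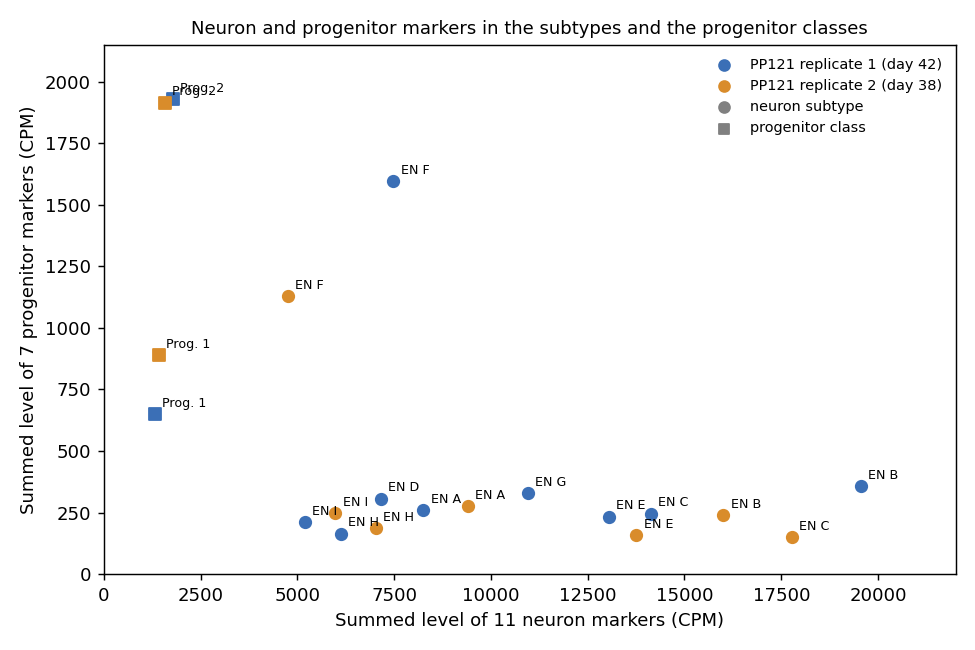
Summed level of 11 neuron markers (x axis, CPM) against 7 progenitor markers (y axis, CPM) for each subtype (circles) and the progenitor classes (squares) in each PP121 sample with at least 20 nuclei. EN F lies at 1597 and 1130.2 CPM of progenitor markers, apart from the other subtypes at 357 CPM or less, and right of the progenitor classes.

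Transmitter genes were then compared as the share of nuclei with at least 1 UMI after each nucleus was thinned to 2000 UMIs. SLC6A5 was found in 87.8% (83.2 to 91.5%) and 75.0% (57.8 to 87.9%) of EN C, in 63.6 and 62.1% of EN E, in 66.3 and 38.7% of EN B and in 68.7% of EN G. EN A was lower at 28.6 and 24.2%. EN F at 5.19 and 1.10%, EN H at 4.30 and 0.429% and EN I at 0 of 43 and 3 of 77 were close to the mesenchymal nuclei, a class that should lack the gene, at 3.03 and 2.14%. Mesenchymal nuclei had median depths of 8401 and 7227 UMIs, near those of the subtypes.

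SLC17A6 was found in 20.2 and 19.7% of EN H and 18.6 and 20.8% of EN I, in 10.5% of EN D and in 7.59 and 9.25% of EN A. It was at 1.68% or below in EN B, EN C, EN E, EN F and EN G, and at 0 and 0.476% in mesenchymal nuclei. Without thinning, EN H and EN I stood at 45.0 and 45.5% and at 51.2 and 48.1%. GAD2 was highest in EN G (38.4%), EN E (32.6 and 41.4%), EN C (84 of 262 and 9 of 36 nuclei) and EN B (21.3 and 14.3%). CHAT was found in 10.3 and 13.9% of EN C and in 0 mesenchymal nuclei, and SLC5A7 in 4.65 and 6.49% of EN I.

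**Figure D4:**
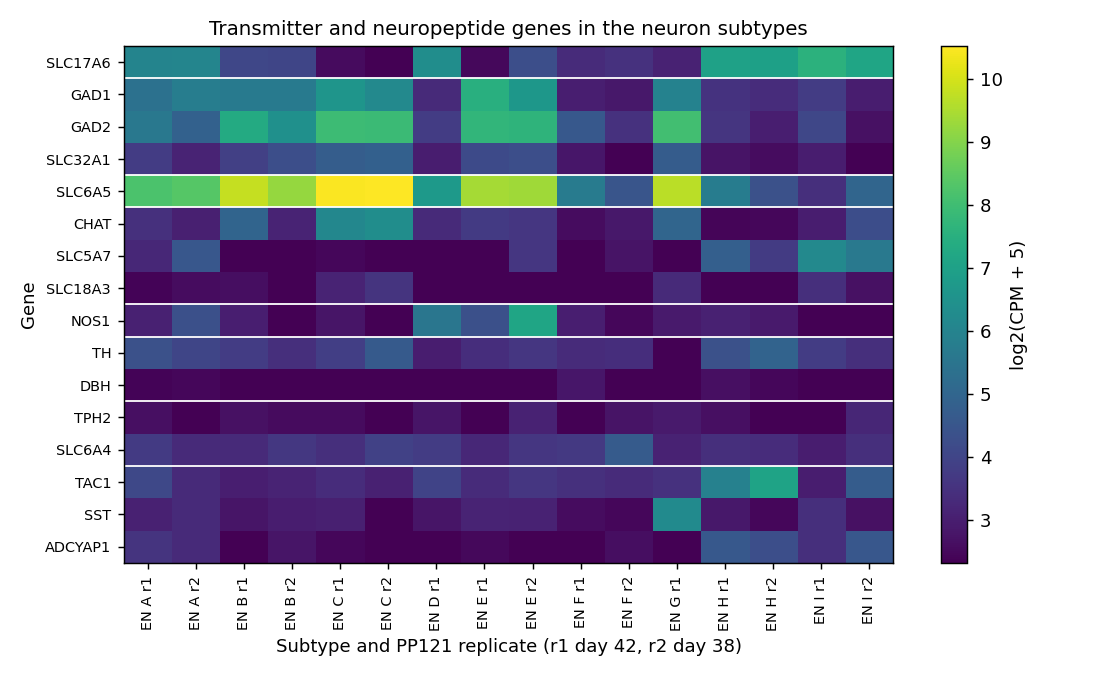
Levels of transmitter genes, as log2(CPM + 5), in each subtype and PP121 sample with at least 20 nuclei. SLC6A5 is bright (high) in EN B, EN C, EN E and EN G, and SLC17A6 is brightest in EN H and EN I. NOS1 is above 10 CPM in EN D, in both samples of EN E and in replicate 2 of EN A.

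NOS1, the gene the treatment was meant to favour, was sparse in every subtype. EN E held 24 UMIs in 9 of 184 nuclei in replicate 1 and 38 UMIs in 5 of 29 in replicate 2. EN D held 43 UMIs in 4 of 114 nuclei, of which 25 came from 1 nucleus, and EN A 10 UMIs in 4 nuclei and 28 in 7. After thinning, 2.72 and 10.3% of EN E and 2.63% of EN D had a NOS1 UMI, against 0 and 0.238% of mesenchymal nuclei. In EN I 0 of 43 and 0 of 77 nuclei had one, which allows a share of nuclei with a UMI at this depth of up to 6.98 and 3.90% and sets no limit on expression.

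The deposited identities, which the authors assigned from imputed expression, gave other shares. They called 132 of 184 EN E nuclei (71.7%) and 19 of 29 (65.5%) nitrergic, of which 9 and 5 had a NOS1 UMI. In EN I they called 11 and 14 nuclei nitrergic, of which 0 and 0 had one. Over all subtyped neurons 358 and 91 were called nitrergic and 33 and 17 of these had a NOS1 UMI. GABAergic identity covered 98.9 and 100% of EN C and 98.4 and 100% of EN E, glutamatergic identity 88.4 and 83.1% of EN I, and catecholaminergic identity 75.5 and 84.1% of EN H, where TH was seen in 10.6 and 16.7% of unthinned nuclei.

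Likeness between samples was described by Pearson's r across 11270 genes of log2(CPM + 5), centred on the mean of the subtypes of each sample. Genes are not independent replicates, and the centring ties the subtypes of a sample to each other, so no p is given. The same subtype in both PP121 samples gave r = 0.78 for EN F, 0.65 for EN H, 0.57 for EN B, 0.49 for EN A, 0.47 for EN E, 0.45 for EN C and 0.41 for EN I. The highest value with any other subtype ran from 0.14 to 0.24. Each of the 7 subtypes was most like its namesake in the other sample. The samples were clustered together on expression, which favours this result, so it is no check that the subtypes recur.

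The control samples have their own annotation of 8 subtypes, EN 1 to EN 8. The most similar control subtype was EN 6 for EN F (mean r = 0.74), EN 2 for EN B (0.64), EN 7 for EN G (0.61, from control replicate 1, since EN 7 had 9 nuclei in control replicate 2), EN 8 for EN H (0.57), EN 5 for EN E (0.55), EN 3 for EN C (0.51) and EN 1 for EN A (0.41). EN D and EN I had the weakest best matches. Both were most like EN 4, at 0.28 and 0.27, values below those of the other 7. EN D rests on PP121 replicate 1 alone, and EN I reached 0.41 with itself across the PP121 samples. The leading 20 genes of EN D averaged 1.30 and 1.50 above the sample mean in EN 4 on the centred log2 scale, those of EN I 0.75 and 0.92, and those of EN H 1.64 and 2.13 in EN 8. In the 2 controls, 20 and 20 of those of EN D, 16 and 17 of EN I, and 19 and 20 of EN H lay above that mean.

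**Figure D5:**
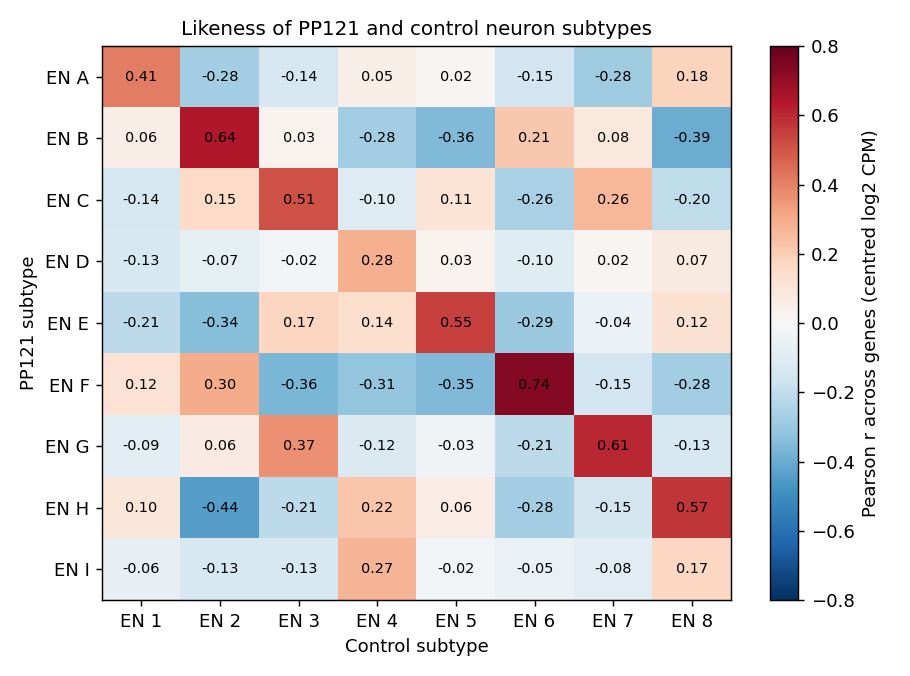
Mean Pearson r across 11270 genes between each PP121 subtype (rows) and each control subtype (columns). The highest cell of a row is EN 6 for EN F at 0.74, while EN D and EN I reach 0.28 and 0.27 with EN 4.

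PP121 was compared with control over all enteric neurons, summed per sample, to ask whether the subtypes' leading genes differed with treatment. The neurons numbered 2301 and 1250 in the controls and 2030 and 976 in PP121. In such sums a change in the number of nuclei of a subtype and a change in RNA per nucleus cannot be told apart. With edgeR's quasi-likelihood test and Benjamini-Hochberg adjustment, 0 of 21243 genes passed an adjusted p of 0.05 without a block (0% higher and 0% lower), with 2549 at an unadjusted p under 0.05. Leaving out PP121 replicate 1 gave 1401 genes and leaving out PP121 replicate 2 gave 155, and leaving out either control gave 0.

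With the replicate number, and so the collection day, as a block, 1694 genes were higher (7.97%) and 1458 lower (6.86%). The leading genes were chosen as high within the PP121 nuclei that form the PP121 side here, which favours higher values with PP121, so their counts and changes are a description and are given with no p. The subtypes share these samples. In this blocked fit 19 of the 20 leading genes of EN H were higher with PP121 and 0 lower, 18 and 0 of EN I, 15 and 0 of EN F, 13 and 0 of EN D, and 6 and 0 of the 13 of EN A. Of EN B 2 were higher and 1 lower, of EN E 2 and 5, of EN G 1 and 3, and of EN C 0 and 7. The median log2 change was 1.26 for EN H, 1.22 for EN I, 0.70 for EN F, 0.52 for EN A, 0.49 for EN D and -0.26 for EN C, against -0.01 over all genes. With only those neurons that had more neuron than progenitor marker UMIs, in the same blocked fit, the counts higher were 19 for EN H, 17 for EN I and 14 for EN F.

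PRDM6 of EN I stood at 1.07 and 2.00 CPM in the controls and 6.70 and 19.8 CPM in PP121 (edgeR blocked fit: log2 2.99, SE 0.263). LHX9 was at 3.57 and 2.27 CPM in the controls and 7.47 and 22.1 CPM in PP121 (log2 2.03, SE 0.299), and GRIK1 at 35.3 and 43.8 CPM in the controls and 90.3 and 186 CPM in PP121 (log2 1.71, SE 0.127). For these 3 genes both PP121 values lay above both control values. The SE of the blocked fit, here and below, can understate how far the change differed between the days. LHX9 went from 3.57 to 7.47 CPM on day 42 and from 2.27 to 22.1 CPM on day 38. Without the block the SE was 0.597 for PRDM6, 0.536 for LHX9 and 0.329 for GRIK1.

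SHOX of EN H stood at 1.73 and 10.1 CPM in the controls and 18.3 and 33.9 CPM in PP121 (log2 2.42, SE 0.229), again with no overlap. TAC1 was at 4.13 and 13.5 CPM in the controls and 13.8 and 35.9 CPM in PP121 (log2 1.56, SE 0.166). LMX1B, at 8.46 and 31.6 CPM in the controls and 30.6 and 75.5 CPM in PP121 (log2 1.53, SE 0.137), overlapped between the groups: the day 38 value was above the day 42 value in either group, and PP121 was higher within each day. EYA2 of EN F showed the same order, at 20.6 and 59.3 CPM in the controls and 41.5 and 203 CPM in PP121 (log2 1.41, SE 0.131).

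Of EN C, PLD5 was at 704 and 329 CPM in the controls and 534 and 143 CPM in PP121 (log2 -0.79, SE 0.115), and PAX8 at 304 and 122 CPM in the controls and 228 and 43.6 CPM in PP121 (log2 -0.89, SE 0.137). CHAT was at 18.8 and 16.9 CPM in the controls and 17.5 and 6.01 CPM in PP121 (log2 -0.63, SE 0.205). NOS1, which led no subtype, was over all neurons at 4.13 and 5.17 CPM in the controls and 6.40 and 8.71 CPM in PP121 (edgeR blocked fit: log2 0.68, SE 0.228, adjusted p = 0.0417), with an adjusted p of 0.406 without the block. The 2 against 2 layout has 6 arrangements of the labels, so an exact permutation test of any single value could not give a two-sided p below 0.333.

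Nuclei with an EN I profile were also counted directly, after these values were seen. The 10 genes used were picked on the PP121 nuclei, which favours those samples, so the shares are a description. Thinned to 2000 UMIs, 33 of 1881 subtyped neurons of PP121 replicate 1 (1.75%, 1.21 to 2.46%) and 49 of 913 of replicate 2 (5.37%, 4.00 to 7.03%) had UMIs of at least 3 of the 10 named EN I genes. In the controls 7 of 2275 (0.308%, 0.124 to 0.633%) and 6 of 1232 (0.487%, 0.179 to 1.06%) did. Of the control nuclei, 6 of 181 and 6 of 213 EN 4 nuclei accounted for all but 1. In PP121, 28 of 43 and 47 of 77 EN I nuclei met the rule, and so did 7 of 420 mesenchymal nuclei of replicate 2.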

How the data were processed

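Single-nucleus RNA-seq libraries were made with 10x Genomics 3′ v3.1 chemistry. Per the labels, the authors used Cell Ranger with GRCh38 and Seurat 4.0.4, and deposited filtered matrices of UMI counts per gene and nucleus (36601 features) with a table of classes, subtypes, identities and mitochondrial and ribosomal percent for annotated nuclei. The authors removed nuclei by genes, UMIs and mitochondrial percent, then clustered the neurons and named the subtypes. EN A to EN I come from their clustering of both treatment groups together. Per the methods, their transmitter identities used imputed values, which were not used here as measurements. Strand handling is not given in the sources used here, so overlapping antisense pairs (CDH18 and CDH18-AS1, PAX8 and PAX8-AS1) are uncertain. No doublet caller was run here, and nuclei without an annotation were left out. A few listed genes are not reported here.

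From the deposited counts, nuclei were summed per subtype and sample and expressed as CPM, with log2 ratios of (CPM + 5). A gene was measured where its mean was at least 10 CPM in the subtype or in the other neurons, and called at 2-fold in both samples with a UMI in at least 5 nuclei of the side that was higher in each. Samples with under 20 nuclei of a subtype gave no ratio. The leading genes were ranked by the smaller of the 2 ratios: the first 20 higher genes formed a list, the first 10 and the 3 lowest were named, and listed genes past 2-fold could be named, as could any transmitter or enteric factor gene. Members and lists were chosen with earlier results of these data known. Shares of nuclei were thinned to 2000 UMIs, leaving out shallower nuclei.

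PP121 and control were compared with edgeR 4.0.16 (R 4.3.3, quasi-likelihood, TMM, Benjamini-Hochberg) on neuron sums, with DESeq2 1.42.0 as an alternative. The replicate numbers pair the samples, because same-numbered samples share the collection day in the deposited table. Their deviations from the group means correlated at r = 0.42 over 21243 genes. The block was fitted as an alternative. Samples are independent differentiations of 1 line. Python 3.11.15, numpy 2.4.6, pandas 2.3.3, scipy 1.17.1 and matplotlib 3.10.9 were used.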

Additional observations from a re-analysis of the deposited data

How the results depend on the processing

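No share left the spread between the samples under another denominator or without nuclei of over 20000 UMIs. Of the alternative ratios of 117 named genes, 884 of 884 kept their sign. These genes were chosen as past 2-fold in each sample used, so this was close to fixed in advance and is no check. Counts of genes past 2-fold moved by over 1.5 times in a few subtypes. With a pseudocount of 1 CPM they were 113 for EN A (50 as reported), 785 for EN D (484), 434 for EN E (263; 153 higher and 281 lower) and 1281 for EN G (827), and with the other subtypes weighted equally 84 for EN A. Called on 1 PP121 sample alone, by construction a weaker demand, the counts ranged from 183 to 336 for EN A, 535 to 541 for EN B, 329 to 1600 for EN C, 577 to 1727 for EN E, 1256 to 1531 for EN F, 547 to 625 for EN H and 667 to 1115 for EN I. EN D and EN G could not be run that way, since 1 sample holds nearly all their nuclei. For PP121 against control, the replicate block gave 3152 genes where 0 passed without it, and the block with only nuclei of more neuron than progenitor marker UMIs gave 2696. DESeq2 without a block gave 81 and no filter on low counts 69. Leaving out 1 sample gave 0 to 1401, where the lone sample of a group is assumed to vary like the others. The cause was not tested. Depth limits genes with few UMIs per subtype, NOS1 and TH among them.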

Other observations

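The 204 neurons without a subtype, 143 in PP121 replicate 1 and 61 in replicate 2, entered no comparison of the subtypes. Their median depth was 14387 and 12198 UMIs, against 6900 and 7784 UMIs in the subtyped neurons, and 18 and 9 of them had over 20000 UMIs. The proliferation list summed to 485 and 868 CPM in them, against 117 and 168 CPM over all neurons of the same samples, and the 7 progenitor markers to 886 and 832 CPM. Their neuron markers summed to 7367 and 7308 CPM. Ribosomal transcripts took a median of 0.730 and 0.725% of their UMIs, against 0.716 and 0.682% in the subtyped neurons.

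By the deposited cell-cycle calls, 25.3 and 22.2% of the subtyped neurons were in S phase and 9.64 and 13.8% in G2M. EN F, at 21.5 and 29.1% in S phase, was below the whole in replicate 1 and above it in replicate 2. The proliferation list stood at 63.0 and 97.8 CPM in EN A, 71.1 and 99.6 CPM in EN H and 54.6 and 119 CPM in EN F. It stood at 216 and 352 CPM in Progenitor 1 and 618 and 774 CPM in Progenitor 2. These phase calls are not read as cycling, and whether they mark it was not tested.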
